A study of Schmidtea mediterranea with 24 samples.

Results

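The free-standing aminoacyl-tRNA synthetases are 7 genes of the planarian *Schmidtea mediterranea*, taken by their gene IDs from the 16575 genes of each deposited table. They are *AARS* (SMED30015750), *CARS* (SMED30004923), *NARS* (SMED30006058), *SARS* (SMED30016739), *VARS* (SMED30026743) and a pair of genes that both match *TARS* (SMED30015942 and SMED30035804). The symbols are the protein matches given in the study's own annotation, and no sequence was examined here. All 7 genes passed the filter on low values in every comparison, a value of at least 10 in at least 3 libraries. Libraries came from regenerating worms at 48 hours post amputation, pooled within each replicate, with head, trunk and tail named as the tissue. Worms had been fed double-stranded RNA against *fbl-1* (*fbl-1* KD) or *fbl-2* (*fbl-2* KD), the planarian homologs of the rRNA 2′-O-methyltransferase Fibrillarin. The controls of *fbl-1* KD were fed double-stranded RNA against *egfp*, a gene the worm lacks (*egfp* KD), and *fbl-2* KD had separate controls labelled *egfp* 2x KD. The food for *fbl-1* KD was made at a higher concentration than that for *fbl-2* KD, so the target and the dose of the arms cannot be told apart. Each of the 4 groups had 3 RNA-seq libraries (mRNA) and 3 Ribo-seq libraries (footprints, the mRNA pieces that ribosomes cover).

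Aminoacyl-tRNA synthetases join each amino acid to its tRNA, and the charged tRNA is what the ribosome uses to read a codon. In mammals, some of them are held together in a multisynthetase complex, while others work alone or with other partners. The 7 genes here carry the names of mammalian enzymes outside that complex. Transcription of many synthetase genes is known, in mammals, to rise with the integrated stress response, in which phosphorylated eIF2 lowers general initiation and the factor ATF4 is made. Whole-worm RNA cannot tell more cells of a type from more RNA per cell, and this holds for every value below.

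The deposited values are whole numbers whose low end shows scaling and rounding of reads in most libraries, so they are called scaled reads here, and the total per library was 8762055 to 9549828 for mRNA and 9116524 to 10763740 for footprints. Within a group, the Spearman correlation between libraries was 0.985 to 0.992 for mRNA and 0.961 to 0.990 for footprints. Among the whole numbers from 1 to 20, some were held by no gene in 2 of 12 mRNA libraries and 7 of 12 footprint libraries. In 12 further libraries at least 1 of these numbers was held by over 1.5 times as many genes as its neighbours on average, and 3 libraries showed neither sign. The footprint libraries egfp-3 and fbl-1_1 each lacked 7 of these numbers. Footprint libraries are given by their column names, since the names show the group but not which sample.

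The targeted genes were read first. In the libraries labelled *fbl-1* KD, *fbl-1* (SMED30005569) had mRNA values of 1383, 981 and 753 scaled reads, against 143, 130 and 129 in *egfp* KD, a log2 change of 2.90 (SE 0.18). In the libraries labelled *fbl-2* KD, *fbl-2* (SMED30025294) had mRNA values of 481, 773 and 982 scaled reads, against 127, 135 and 144 in *egfp* 2x KD, a log2 change of 2.39 (SE 0.22). Footprints were also higher, with log2 changes of 1.41 (SE 0.18) for *fbl-1* and 3.09 (SE 0.21) for *fbl-2*. In the other arm, *fbl-1* mRNA was 156 to 242 in *fbl-2* KD, against 134 to 186 in *egfp* 2x KD. There *fbl-2* mRNA was 128 to 165 in *fbl-1* KD, against 101 to 161 in *egfp* KD. Footprints of *fbl-1* were 235 to 381 in *fbl-2* KD, against 158 to 206 in *egfp* 2x KD. Those of *fbl-2* were 193 to 259 in *fbl-1* KD, against 238 to 292 in *egfp* KD. Each target was thus higher, not lower, in the libraries labelled with its knockdown, and neither a part of reads from the fed RNA nor a swap of labels was tested. Every direction given below is that of the libraries as labelled.

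In the libraries labelled *fbl-1* KD, the mRNA of 6 of the 7 genes was higher than in *egfp* KD, by 1.34-fold for *VARS* to 2.63-fold for *CARS*, and the groups did not overlap for any of these 6. The seventh, *TARS* SMED30035804, overlapped with its controls. Names were at hand only for genes near the top of the study's own lists, which appear to be ordered by the mRNA change. The 7 genes were thus chosen by their measured change, 6 through the *fbl-1* KD list and SMED30035804 through the *fbl-2* KD list. The *fbl-1* KD values of the 6, and the *fbl-2* KD values of SMED30035804, therefore are a description and carry no p-value. Fits used limma with a variance that follows the mean, on log2 of the value plus 1, and the threshold was an adjusted p of 0.05 over all genes tested. Of the 7 genes, 6 passed it as higher and 0 as lower, where 2.59% of the 12965 genes tested passed as higher and 2.45% as lower. The change that was fitted had chosen these 6, so nothing is read from this count. The median log2 change was 0.85 over the 7 genes and -0.01 over all genes tested. Non-overlapping groups with *fbl-1* KD higher were seen in 11.0% of all genes, and with *fbl-1* KD lower in 12.7%.

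*AARS* and *TARS* SMED30015942, which charge alanine and threonine tRNAs, had 2.27-fold and 2.11-fold higher mRNA in the libraries labelled *fbl-1* KD. *AARS* had mRNA values of 3909, 3958 and 3599 in *fbl-1* KD replicates 1, 2 and 3, against 1652, 1689 and 1705 in *egfp* KD, a log2 change of 1.18 (SE 0.11, n = 3 each). *TARS* SMED30015942 had 4578, 4415 and 4440 in *fbl-1* KD, against 2042, 2240 and 2088 in *egfp* KD, a log2 change of 1.08 (SE 0.11). The lowest *fbl-1* KD library of either gene stood above its highest control. *CARS*, which charges cysteine tRNA, had the highest change of the 7 genes. It had mRNA values of 1496, 1398 and 1435 in *fbl-1* KD, against 440, 629 and 592 in *egfp* KD, a log2 change of 1.40 (SE 0.13). Its controls were the more spread of its 2 groups (SD 100.2, against 49.5 in *fbl-1* KD).

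*NARS*, *SARS* and *VARS*, for asparagine, serine and valine, had smaller changes. *NARS* had mRNA values of 1276, 1486 and 1235 in *fbl-1* KD, against 685, 798 and 735 in *egfp* KD, a log2 change of 0.85 (SE 0.12). *SARS*, whose enzyme also puts serine on the tRNA for selenocysteine in mammals, had 1150, 1078 and 1132 in *fbl-1* KD, against 779, 650 and 728 in *egfp* KD, a log2 change of 0.64 (SE 0.11). *VARS* had 1061, 1149 and 1128 in *fbl-1* KD, against 797, 867 and 833 in *egfp* KD, a log2 change of 0.42 (SE 0.11). *VARS* was the member nearest to the threshold. Its call was lost when any 1 of 5 of the 6 libraries was left out, with log2 changes of 0.39 to 0.45, and kept without *egfp* KD replicate 2. In a fit without the mean trend, *NARS*, *SARS* and *VARS* did not pass and 3 of the 7 genes did. In the order of the mRNA changes (*CARS*, *AARS*, *TARS* SMED30015942, *NARS*, *SARS*, *VARS*, *TARS* SMED30035804), no neighbours differed by more than 2 of their combined standard errors, with gaps of 0.11 to 0.32.

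**Figure D1:**
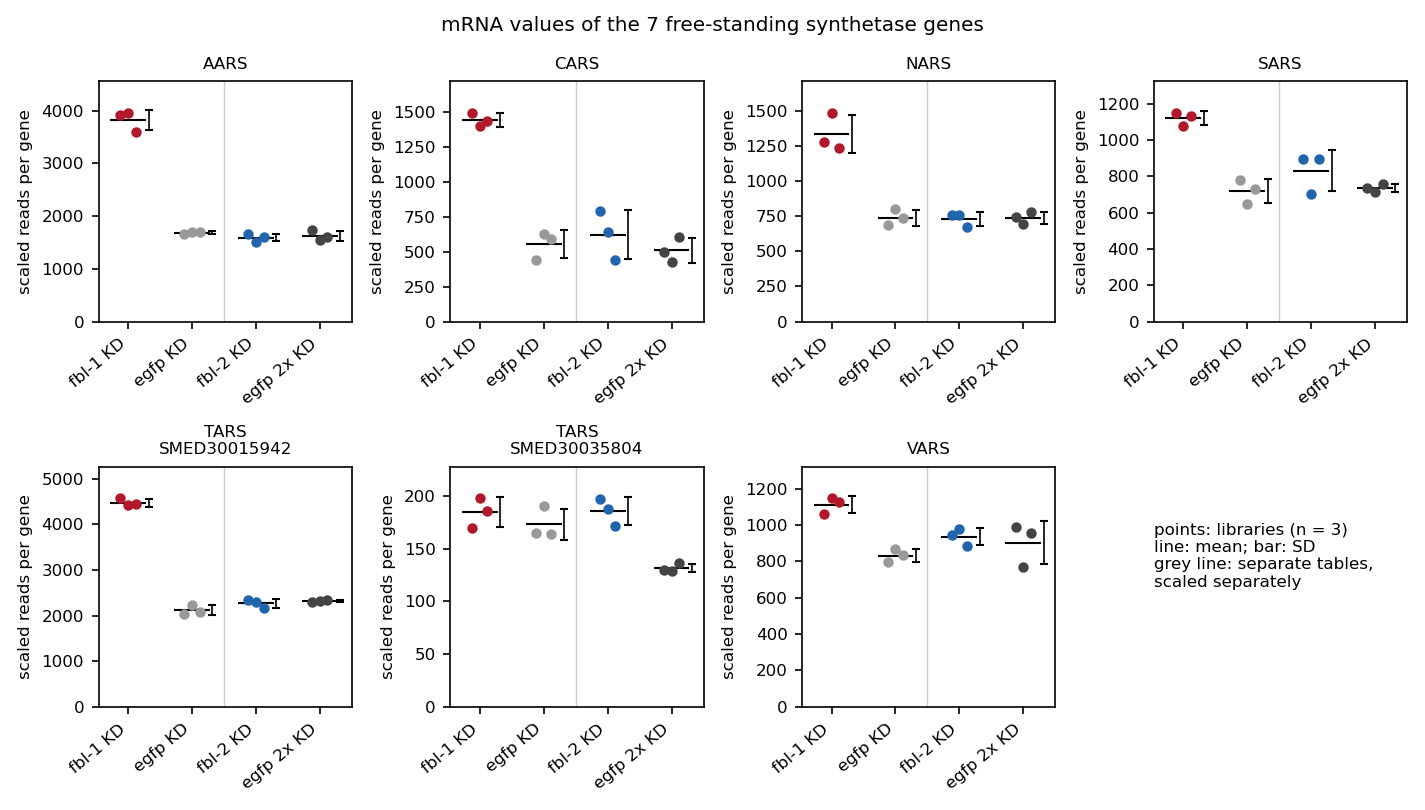
mRNA values (scaled reads per gene, vertical axis from 0) of the 7 genes in the 4 groups, 1 point per library with the mean as a line and the SD as a bar (n = 3). The *fbl-1* KD points stand above all *egfp* KD points for every gene but *TARS* SMED30035804, whose values are 170 to 198 in *fbl-1* KD and 164 to 190 in *egfp* KD.

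*TARS* SMED30035804 was the only one of the 7 genes not named through the *fbl-1* KD list. Its absence near the top of that list makes a high *fbl-1* KD change unlikely. The p-values given for it in *fbl-1* KD are therefore no independent test. Its mRNA values were 170, 198 and 186 scaled reads in *fbl-1* KD, against 165, 190 and 164 in *egfp* KD, and the groups overlapped. The log2 change was 0.09 (SE 0.16, 95% interval -0.24 to 0.43, limma adjusted p = 0.789, 0.651 to 0.924 over 11 alternatives). The interval reaches from 0.844-fold to 1.35-fold. The *TARS* pair therefore differed in *fbl-1* KD as values, 2.11-fold for SMED30015942 and 1.07-fold for SMED30035804. Reads were counted where they mapped uniquely, and whether the pair shares sequence was not examined.

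The footprint changes in *fbl-1* KD had wider errors than the mRNA changes for all 7 genes. Their order was *AARS*, *CARS*, *TARS* SMED30015942, *NARS*, *VARS*, *SARS* and *TARS* SMED30035804, and no neighbours differed by more than 2 of their combined standard errors. The 3 genes *AARS*, *CARS* and *TARS* SMED30015942 passed the threshold as higher and 0 as lower, where 0.384% of the 12503 genes tested passed as higher and 0.488% as lower. Footprints came from the same lysates as the mRNA whose change chose these 3 genes, so nothing is read from this count. Groups did not overlap for 5 of the 7 genes, with *fbl-1* KD higher in each, as for 11.3% of all genes (12.5% with *fbl-1* KD lower). The median log2 change was 0.69 over the 7 genes and 0.02 over all genes. These calls depended on single libraries. None of the 7 genes passed without egfp-1, fbl-1_2 or fbl-1_3, or in a fit without the mean trend, and *AARS* alone passed without egfp-2.

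*AARS* had footprint values of 3258, 3924 and 3845 in the libraries labelled fbl-1_1, fbl-1_2 and fbl-1_3, against 1715, 1707 and 1298 in egfp-1, egfp-2 and egfp-3, a log2 change of 1.23 (SE 0.15). *CARS* had 1447, 1847 and 1833 in *fbl-1* KD, against 854, 772 and 959 in *egfp* KD, a log2 change of 0.98 (SE 0.16). *TARS* SMED30015942 had 4805, 4352 and 4142 in *fbl-1* KD, against 2210, 2164 and 2779 in *egfp* KD, a log2 change of 0.90 (SE 0.14). For all 3 genes the groups stood apart in every library. The library fbl-1_1 was the lowest of its group for *AARS* and *CARS* and the highest for *TARS* SMED30015942.

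*NARS* had footprint values of 1434, 2024 and 1736 in *fbl-1* KD, against 981, 1214 and 1007 in *egfp* KD, a log2 change of 0.69 (SE 0.17). *VARS* had 1404, 1525 and 1696 in *fbl-1* KD, against 1200, 1204 and 1108 in *egfp* KD, a log2 change of 0.39 (SE 0.14). Neither gene passed the threshold, though no library of one group entered the range of the other. *SARS* had 604, 1028 and 874 in *fbl-1* KD, against 749, 814 and 564 in *egfp* KD, a log2 change of 0.22 (SE 0.22). Its groups overlapped, since fbl-1_1 lay below 2 of the 3 controls, and its *fbl-1* KD libraries had the widest SD of the 7 genes in proportion to the mean (835 ± 215, against 709 ± 130 in *egfp* KD). *TARS* SMED30035804 had 175, 174 and 145 in *fbl-1* KD, against 189, 174 and 152 in *egfp* KD, with a log2 change of -0.06 (SE 0.23, 95% interval -0.57 to 0.45, limma adjusted p = 0.923, 0.749 to 0.991 over 10 alternatives).

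**Figure D2:**
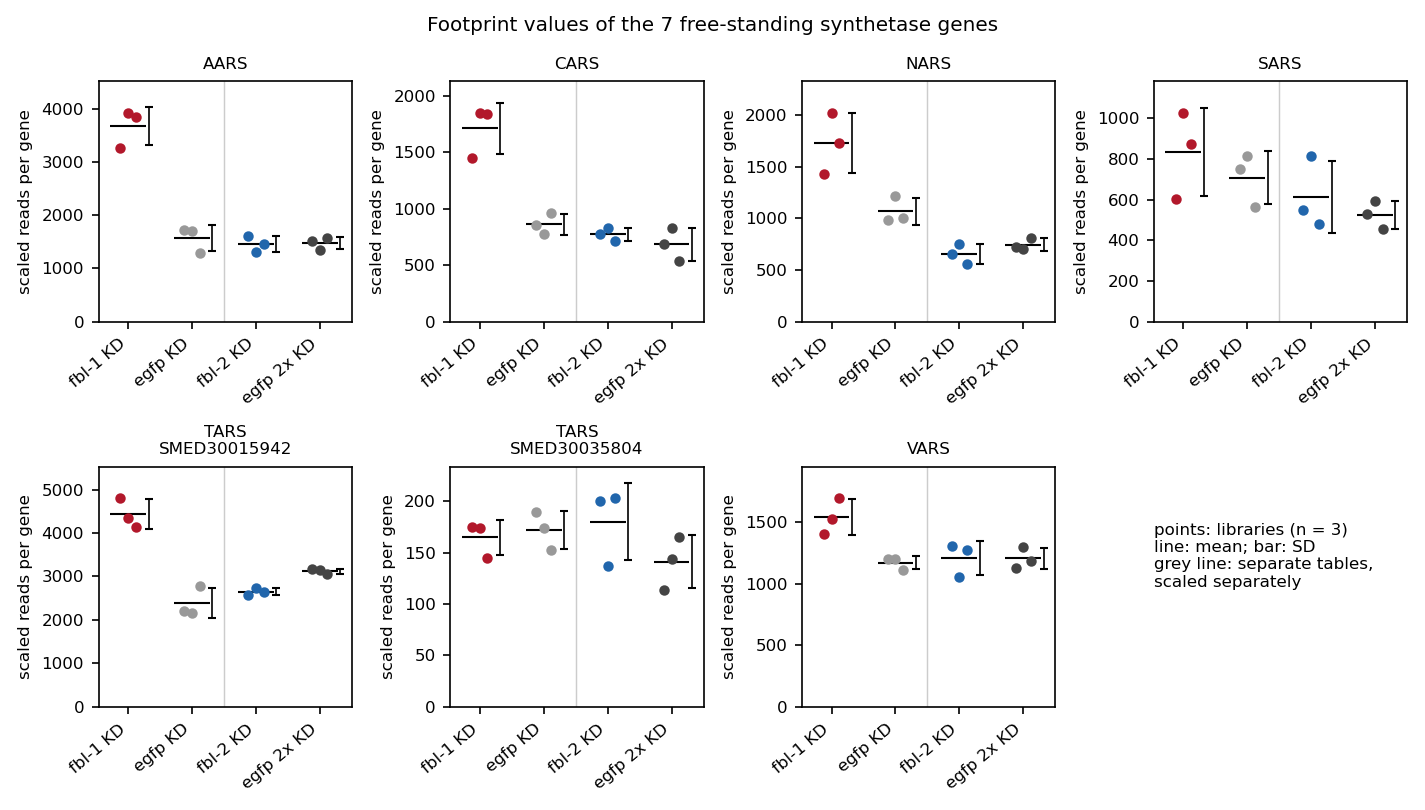
Footprint values (scaled reads per gene, vertical axis from 0) of the 7 genes in the 4 groups, 1 point per library with the mean as a line and the SD as a bar (n = 3). *SARS* and *TARS* SMED30035804 are the genes whose *fbl-1* KD and *egfp* KD points overlap, and *TARS* SMED30015942 is lower in *fbl-2* KD (2564 to 2732) than in *egfp* 2x KD (3053 to 3160).

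Translational efficiency (TE) is footprints relative to mRNA, and its change was fitted as the interaction of knockdown and assay over 12 libraries. Each sample's lysate had been divided between the assays, but the libraries were fitted as independent, since footprint columns could not be tied to single samples. A change of footprints that matches the change of mRNA gives a TE change of 0. In *fbl-1* KD, 0 of the 7 genes passed the threshold, where 0% of the 13341 genes tested passed (limma, with 307 genes higher and 361 lower at an unadjusted p below 0.05, none of the 7 among them). *AARS* had a TE change of 0.05 (SE 0.18) and *VARS* of -0.02 (SE 0.15), the values nearest to 0. *NARS*, *TARS* SMED30015942 and *TARS* SMED30035804 lay at -0.16 (SE 0.20), -0.18 (SE 0.16) and -0.15 (SE 0.25). *SARS* and *CARS* had the lowest values, -0.42 (SE 0.26) and -0.41 (SE 0.21), with 95% intervals of -0.98 to 0.13 and -0.86 to 0.04. A TE change subtracts the mRNA change, which chose all of these genes but *TARS* SMED30035804. That choice makes values below 0 more likely, and its part was not tested. For *TARS* SMED30035804 the adjusted p of the TE change was 0.94 (limma). The footprint change of *SARS* was thus smaller than its mRNA change by less than 2 standard errors.

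In the libraries labelled *fbl-2* KD, the mRNA changes of the 7 genes against *egfp* 2x KD were -0.04 to 0.49. The 6 genes named through the *fbl-1* KD list were tested here, since their *fbl-2* KD values do not set their place in that list. Members were chosen with earlier results of these data known, so full independence from the choice is not given. In limma, 0 of the 7 genes passed in either direction, where 0.162% of the 12958 genes tested passed as higher and 0.201% as lower. None of these 6 genes had an unadjusted p below 0.05, as 9.93% of all genes tested did. Median log2 changes were 0.06 over the 7 genes and 0.00 over all genes.

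*AARS* had mRNA values of 1654, 1515 and 1609 in *fbl-2* KD, against 1730, 1541 and 1604 in *egfp* 2x KD, a log2 change of -0.03 (95% interval -0.29 to 0.24, limma adjusted p = 0.963). *NARS* had 756, 756 and 670 in *fbl-2* KD, against 741, 692 and 778 in *egfp* 2x KD, a log2 change of -0.02 (95% interval -0.30 to 0.26, limma adjusted p = 0.977). *TARS* SMED30015942 had 2337, 2305 and 2157 in *fbl-2* KD, against 2302, 2317 and 2351 in *egfp* 2x KD, a log2 change of -0.04 (95% interval -0.30 to 0.22, limma adjusted p = 0.948). The groups overlapped for all 3, and the upper ends of the intervals were 1.20-fold for *NARS*, 1.18-fold for *AARS* and 1.17-fold for *TARS* SMED30015942. *VARS* had 947, 979 and 884 in *fbl-2* KD, against 988, 769 and 954 in *egfp* 2x KD, a log2 change of 0.06 (95% interval -0.24 to 0.36, limma adjusted p = 0.926).

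*SARS* and *CARS* had wider intervals in *fbl-2* KD. *SARS* had mRNA values of 898, 704 and 894 in *fbl-2* KD, against 734, 715 and 760 in *egfp* 2x KD, a log2 change of 0.17 (95% interval -0.13 to 0.47, limma adjusted p = 0.769). *CARS* had 789, 639 and 438 in *fbl-2* KD, against 496, 429 and 606 in *egfp* 2x KD, a log2 change of 0.26 (95% interval -0.19 to 0.71, limma adjusted p = 0.76). *CARS* values of *fbl-2* KD lay within, just above and well above the range of its controls. The upper end of the *CARS* interval was 1.63-fold.

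*TARS* SMED30035804 was the member with the highest mRNA change in *fbl-2* KD, as its choice through that list makes likely. It had 197, 188 and 171 in *fbl-2* KD, against 130, 129 and 136 in *egfp* 2x KD, a log2 change of 0.49 (SE 0.16). The groups did not overlap, as for 7.08% of all genes with *fbl-2* KD higher (7.91% with it lower), and the gene did not pass the threshold. Its footprints were 200, 137 and 203 in *fbl-2* KD, against 114, 144 and 165 in *egfp* 2x KD, with overlap and a log2 change of 0.34 (SE 0.34). Each gene of the *TARS* pair had its higher mRNA change in the knockdown whose list named it, so the contrast between the pair is a description.

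The footprints of the 7 genes in *fbl-2* KD also passed no threshold, with 0 of 7 in limma, where 1.17% of the 12612 genes tested passed as higher and 1.96% as lower. *TARS* SMED30015942 was the 1 gene of the 7 with an unadjusted p below 0.05, as 13.57% of all genes tested had. It had footprint values of 2564, 2732 and 2648 in *fbl-2* KD, against 3160, 3148 and 3053 in *egfp* 2x KD. Every *fbl-2* KD library was below every control, as for 8.96% of all genes (9.25% with *fbl-2* KD above), and the log2 change was -0.24 (95% interval -0.43 to -0.04, limma adjusted p = 0.237, 0.132 to 0.567 over 10 alternatives). All 3 control libraries of this comparison were among those with missing low whole numbers (6 or 7 of the numbers from 1 to 20), and the part of this in the value was not tested.

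*AARS* had footprint values of 1608, 1301 and 1459 in *fbl-2* KD, against 1516, 1351 and 1570 in *egfp* 2x KD, a log2 change of -0.03 (SE 0.12, limma adjusted p = 0.96). *NARS* had 654, 748 and 555 in *fbl-2* KD, against 726, 701 and 813 in *egfp* 2x KD, a log2 change of -0.20 (SE 0.16, limma adjusted p = 0.652). *VARS* had 1310, 1052 and 1270 in *fbl-2* KD, against 1129, 1301 and 1185 in *egfp* 2x KD, a log2 change of 0.00 (SE 0.13, limma adjusted p = 0.996). All of these groups overlapped. *CARS* had 775, 824 and 714 in *fbl-2* KD, against 686, 831 and 536 in *egfp* 2x KD, a log2 change of 0.19 (SE 0.17, limma adjusted p = 0.687). *SARS* had 548, 815 and 479 in *fbl-2* KD, against 531, 592 and 456 in *egfp* 2x KD, a log2 change of 0.19 (SE 0.20, limma adjusted p = 0.738), which was -0.03 without fbl-2_2. TE changes in *fbl-2* KD were -0.20 to 0.02 over the 7 genes (SE 0.13 to 0.34), with limma adjusted p of 0.883 to 0.997 for the 6 genes tested and 0 of 7 past the threshold, as for 0% of the 13368 genes tested (327 higher and 463 lower at an unadjusted p below 0.05, none of the 7 among them).

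**Figure D3:**
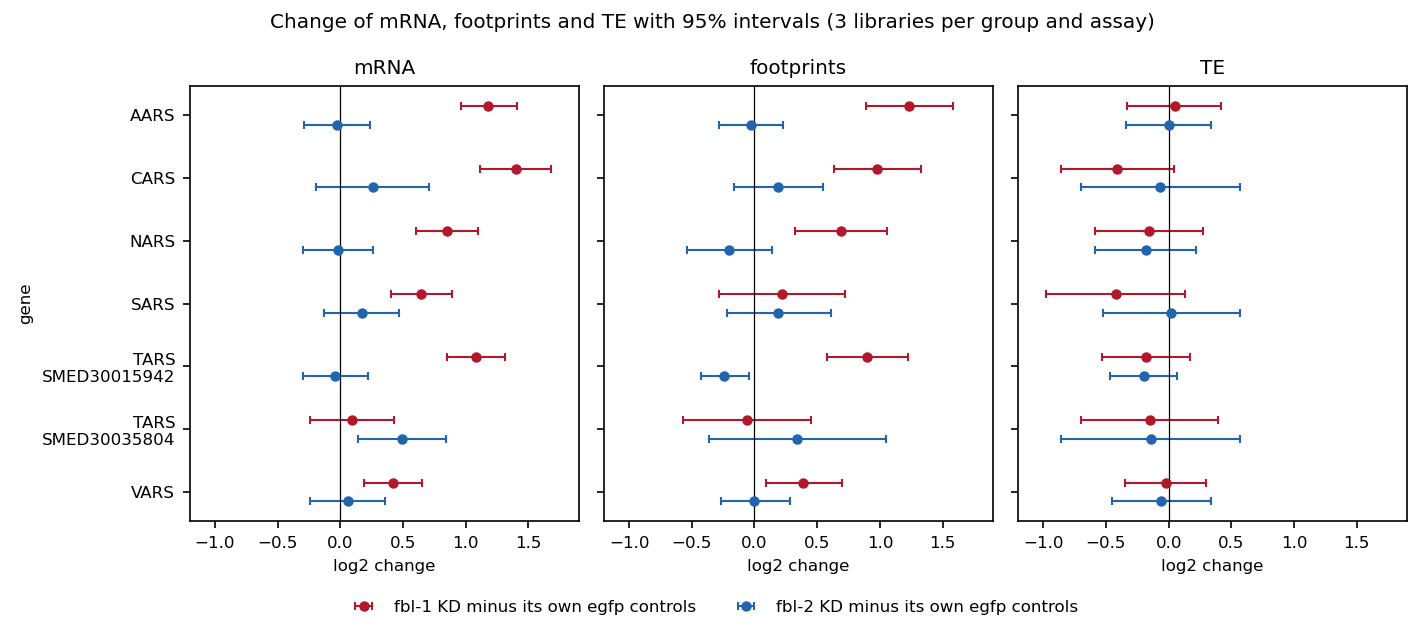
Log2 changes of mRNA, footprints and TE for the 7 genes, *fbl-1* KD minus *egfp* KD in red and *fbl-2* KD minus *egfp* 2x KD in blue, with 95% intervals from limma. Red intervals of mRNA reach down to 0.19 for *VARS* among the 6 genes chosen by that change, so for these 6 they are a description and no test. TE intervals of both knockdowns include 0 for all 7.

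The knockdowns were also set against each other, each relative to its own controls. As mRNA, the *fbl-1* KD change minus the *fbl-2* KD change was 1.21 for *AARS* (SE 0.14), 1.14 for *CARS* (SE 0.27), 1.11 for *TARS* SMED30015942 (SE 0.14), 0.87 for *NARS* (SE 0.16), 0.47 for *SARS* (SE 0.17), 0.36 for *VARS* (SE 0.16) and -0.39 for *TARS* SMED30035804 (SE 0.20). *AARS*, *NARS* and *TARS* SMED30015942 passed the threshold as higher, 3 of the 7 genes, where 0.128% of the 13244 genes tested did (0.0302% as lower). The difference of *CARS* did not pass, and its *fbl-2* KD mRNA was 622 ± 176 scaled reads, against 510 ± 89.4 in *egfp* 2x KD. As footprints, *AARS* at 1.26 (SE 0.20) and *TARS* SMED30015942 at 1.14 (SE 0.17) passed, 2 of the 7 genes, where 0.0763% of the 13100 genes tested did (0.0305% as lower). These differences hold the *fbl-1* KD change that chose the members, so they are a description and nothing is read from the counts.

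A further 8 synthetase genes had a name at hand, 6 of them of enzymes that belong to the multisynthetase complex of mammals (*EPRS*, *IARS*, *QARS*, *MARS*, *RARS* and *DARS*) and the others *WARS* and *YARS*, for tryptophan and tyrosine. These names also come from lists ordered by change in either knockdown. Nothing is therefore read from their counts of calls or p-values, in *fbl-1* KD or in *fbl-2* KD. In *fbl-1* KD the mRNA of 6 of the 6 complex genes passed the threshold as higher, where 2.59% of all genes tested did. Their log2 changes were 0.64 to 1.44 with a median of 1.10, against 0.09 to 1.40 and 0.85 for the free-standing genes. The ranges of the free-standing and complex genes overlapped over most of their length. *WARS* had a log2 change of 0.57 (SE 0.11) and passed, and *YARS* of 0.40 (SE 0.14) and did not. Footprints of the complex genes had a median log2 change of 1.02, with 4 of 6 past the threshold as higher (0.384% of all genes). Their TE changes were -0.33 to 0.17. In *fbl-2* KD, 0 of the 6 complex genes passed in limma, with mRNA changes of -0.10 to 0.06 and footprint changes of -0.34 to 0.17, of which *RARS* footprints alone had an unadjusted p below 0.05 (0.0293, adjusted p = 0.291), as 13.57% of all genes had. *WARS* and *YARS* had mRNA changes of 0.14 and 0.12 in *fbl-2* KD, neither past the threshold nor at an unadjusted p below 0.05.

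**Figure D4:**
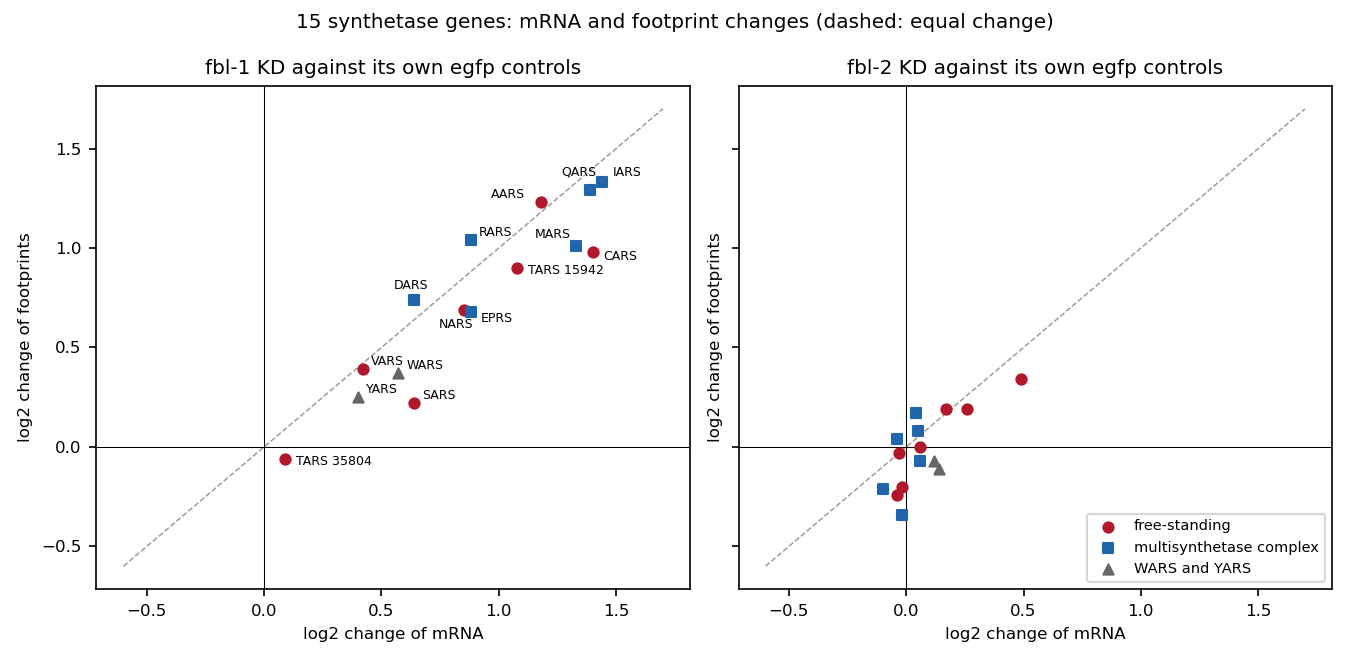
Log2 change of mRNA (horizontal) and of footprints (vertical) for 15 synthetase genes, 7 free-standing, 6 of the multisynthetase complex and *WARS* with *YARS*, in *fbl-1* KD (left) and *fbl-2* KD (right). In *fbl-1* KD all but *TARS* SMED30035804 lie above 0 on both axes, from 0.40 for *YARS* to 1.44 for *IARS* as mRNA, and in *fbl-2* KD mRNA changes of the 15 genes are -0.10 to 0.49.

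Summed over the 7 free-standing genes, mRNA came to 13155 to 13682 scaled reads in *fbl-1* KD libraries, against 6560 to 7063 in *egfp* KD, and to 6823 to 7578 in *fbl-2* KD, against 6592 to 7189 in *egfp* 2x KD. Summed footprints were 13127 to 14874 in *fbl-1* KD, against 7867 to 8049 in *egfp* KD, and 7328 to 7659 in *fbl-2* KD, against 7778 to 8068 in *egfp* 2x KD. The *fbl-1* KD and *egfp* KD sums stood apart in both readouts, the *fbl-2* KD and *egfp* 2x KD sums overlapped as mRNA, and as footprints *fbl-2* KD was the lower. Without *TARS* SMED30015942 the footprint sums overlapped, at 4680 to 5095 in *fbl-2* KD, against 4702 to 4920 in *egfp* 2x KD. Markers of neoblasts, the planarian stem cells, moved the other way in *fbl-1* KD. The sum of *piwi-1*, *vasa-1* and *MCM2* was 11938 to 12837 in *fbl-1* KD mRNA, against 17823 to 19215 in *egfp* KD, and 10214 to 12517 in *fbl-1* KD footprints, against 16761 to 20853 in *egfp* KD. As mRNA, 2 of these 3 markers passed the threshold as lower and 0 as higher, where 2.45% and 2.59% of all genes did. As footprints, 1 passed as lower (*vasa-1* at -0.70, SE 0.13) and 0 as higher, where 0.488% and 0.384% of all genes did. In *fbl-2* KD the sum was 14797 to 16936, against 17534 to 18275 in *egfp* 2x KD as mRNA, and 0 of 3 passed in limma, also at an unadjusted p below 0.05. *fbl-2* KD footprints of these markers summed to 12384 to 12654, against 13709 to 14917 in *egfp* 2x KD, with 0 of 3 past the threshold and 1 at an unadjusted p below 0.05. The 5 epidermal lineage markers summed to 3428 to 3706 in *fbl-1* KD, against 3270 to 4343 in *egfp* KD as mRNA. Of these markers, 1 passed as higher (*egr-5*) and 1 as lower (*prog-1*), where 2.59% and 2.45% of all genes did. Their *fbl-1* KD footprints summed to 4622 to 6022, against 5671 to 7330 in *egfp* KD, with 0 of 4 tested past the threshold in limma and 2 at an unadjusted p below 0.05, *prog-1* at -1.16 (SE 0.23) and *zpuf-4* at -0.72 (SE 0.21). In *fbl-2* KD they summed to 3540 to 4138 as mRNA, against 3352 to 3619 in *egfp* 2x KD, with 0 of 5 past the threshold in limma and 1 at an unadjusted p below 0.05. *fbl-2* KD footprints of these markers summed to 3782 to 3974, against 4212 to 4369 in *egfp* 2x KD. There *egr-5* passed as higher at 0.83 (SE 0.17) and *zpuf-4* as lower at -0.94 (SE 0.25), where 1.17% and 1.96% of all genes did. The marker *zpuf-3* had at most 3 scaled reads in *fbl-1* KD footprint libraries, no marker was at 0 throughout a group, and the part of these cell types in the synthetase values was not tested.

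Other steps around tRNA charging were read from 3 lists of named genes. Their names too come from lists ordered by change in either knockdown. Nothing is therefore read from the counts of calls or the p-values, in *fbl-1* KD or in *fbl-2* KD. Of 13 genes for tRNA processing, modification and export, 12 were tested. In *fbl-1* KD mRNA 1 passed as higher and 0 as lower (median log2 change 0.24), where 2.59% and 2.45% of all genes did. That gene was *XPOT*, which exports tRNA from the nucleus, at 0.58 (SE 0.12). *TYW5*, which acts in the making of the wybutosine base of tRNA, was at -0.81 (SE 0.25) and did not pass. *NSUN2*, a tRNA cytosine methyltransferase, had its smallest p in *fbl-2* KD footprints, at 0.73 (SE 0.23, limma adjusted p = 0.102). In *fbl-1* KD footprints and in both readouts of *fbl-2* KD, 0 of the 12 passed in limma. At an unadjusted p below 0.05 there was 1 gene in *fbl-1* KD footprints (15.22% of all genes), and there were 2 in *fbl-2* KD mRNA (9.93%) and 1 in *fbl-2* KD footprints (13.57%).

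Of 6 genes of eIF2, which brings the initiator tRNA to the ribosome, and its exchange factor eIF2B, 2 passed as higher and 1 as lower in *fbl-1* KD mRNA (median 0.41). Over all genes, 2.59% passed there as higher and 2.45% as lower. *EIF2S1* SMED30028363, one of the pair matching the alpha subunit, was at 1.06 (SE 0.15), and *EIF2S3*, the gamma subunit, at 0.82 (SE 0.11). The other gene of the pair, *EIF2S1* SMED30001987, was at 0.36 (SE 0.13) and did not pass. *EIF2B1*, an eIF2B subunit, was lower at -0.82 (SE 0.22). *EIF2S1* SMED30028363 also passed in *fbl-1* KD footprints, at 1.06 (SE 0.20), where 0.384% of all genes passed as higher. There SMED30001987 was at 0.05 (SE 0.18) and did not pass. In *fbl-2* KD 0 of 6 passed in limma as mRNA or as footprints, also at an unadjusted p below 0.05. Of 10 genes for amino acid supply, 8 were tested as mRNA. In *fbl-1* KD 2 passed as higher and 1 as lower (median 0.23), where 2.59% and 2.45% of all genes did. *ASNS* SMED30014191, which makes asparagine, was at 0.59 (SE 0.15), *SLC7A6*, an amino acid transporter, at 0.55 (SE 0.12), and *GOT2*, the mitochondrial aspartate aminotransferase, at -0.52 (SE 0.14). The other *ASNS* match, SMED30007463, was at 0.66 (SE 0.19) and did not pass. In footprints of *fbl-1* KD and in both readouts of *fbl-2* KD, 0 genes of this list passed in limma. At an unadjusted p below 0.05 there were 2 of 9 in *fbl-1* KD footprints (15.22% of all genes), 4 of 8 in *fbl-2* KD mRNA (9.93%) and 1 of 9 in *fbl-2* KD footprints (13.57%).

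Likeness to the 7 genes was measured as Pearson's r, over the 12 mRNA libraries, with the median profile of the 7, each library taken relative to the mean of its own controls. The genes searched were the named ones, from the same lists ordered by change that named the 7. High r was therefore likely beforehand, and the order is a description. Of 1693 named genes with a mean of at least 100, the most alike outside the 7 were *IARS* (r = 0.994), *QARS* (0.993), *RARS* (0.984), *MAT2A* (0.980) and *MARS* (0.980). All but *MAT2A*, which makes the methyl donor S-adenosylmethionine, are genes of the complex. *MAT2A* had log2 changes of 0.63 in *fbl-1* KD and -0.05 in *fbl-2* KD. The 3 *fbl-1* KD libraries stand apart from the other 9, so these values rest on that gap. Spearman's rho was 0.951 for *IARS*, 0.958 for *QARS* and *RARS*, 0.734 for *MARS* and 0.720 for *MAT2A*. The complex gene *MARS* was thus near *MAT2A* by rank. Of the 7 genes themselves, 6 had r of 0.869 (*SARS*) to 0.995 (*NARS*) with the median profile that they help to make, and *TARS* SMED30035804 had -0.05.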

How the data were processed

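RNA-seq and Ribo-seq libraries (12 each, 4 groups of 3) were made from pooled worms. According to the study's methods, reads were trimmed, rRNA reads were removed, the rest was aligned to a *Schmidtea mediterranea* transcriptome with Tophat2, and featureCounts took the uniquely mapped reads of each gene. The signal values deposited by the authors are whole numbers, yet in 21 of 24 libraries low numbers are missing or overfilled, as reads multiplied by 1 factor and rounded would be, and all tables were treated as scaled. How the factor was set is not given in the sources used here, so the true depth is unknown and no count model was used. Each arm and assay is a separate table and was compared within itself only. Values at least 10 in at least 3 libraries of a fit were kept, log2(value + 1) was fitted with limma 3.58.1 (R 4.3.3, trend), and p-values were adjusted by Benjamini-Hochberg over all genes tested (threshold 0.05). Fold changes are on that scale. TE changes used 12 libraries, unpaired. An exact permutation test of 3 against 3 cannot go below p = 0.1 and was not used. The labels call the samples of a group biological repeats.

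Named genes are the 7 members throughout, the 8 other named synthetases, up to 3 genes of smallest p per list, the 5 genes most alike, the targets and the cell type markers. Where a gene named from a list has another match of the same name there, that match is given too. Members and lists were chosen with earlier results of these data known. Alternatives were a pseudocount of 5, no filter, median-of-ratios rescaling, no mean trend, a replicate block and leaving out each library.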

Additional observations from a re-analysis of the deposited data

Results flagged for a closer look

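A total of 5 values stood out because the change in *fbl-1* KD differed from that in *fbl-2* KD by a test of the difference itself (limma, contrast of each knockdown with its own controls). As mRNA the difference was 1.21 for *AARS* (1.18 in *fbl-1* KD and -0.03 in *fbl-2* KD), 1.11 for *TARS* SMED30015942 (1.08 in *fbl-1* KD and -0.04 in *fbl-2* KD) and 0.87 for *NARS* (0.85 in *fbl-1* KD and -0.02 in *fbl-2* KD). As footprints it was 1.26 for *AARS* (1.23 in *fbl-1* KD and -0.03 in *fbl-2* KD) and 1.14 for *TARS* SMED30015942 (0.90 in *fbl-1* KD and -0.24 in *fbl-2* KD). All are log2 values, and since the *fbl-1* KD change chose these genes, they are descriptions. *AARS* and *TARS* SMED30015942 kept both calls whichever library was left out, while *NARS* lost its mRNA call without each of the 12. Groups of 3 libraries are too small for a search for single outlying libraries.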

How the results depend on the processing

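With a pseudocount of 5, no filter on low values or median-of-ratios rescaling, the number of members past the threshold was the reported one in all 8 comparisons. A fit without the mean trend gave 3 members in *fbl-1* KD mRNA (6 as reported), 0 in *fbl-1* KD footprints (3) and 0 in the footprint difference of the knockdowns (2). It also gave far fewer calls over all genes, 49 for 654 and 0 for 109 in *fbl-1* KD mRNA and footprints, 2 for 47 and 2 for 394 in *fbl-2* KD, 11 for 21 and 0 for 14 for the differences, and 1 for 0 for TE in *fbl-2* KD. Leaving out 1 library gave 5 to 6 members in *fbl-1* KD mRNA, 0 to 3 in *fbl-1* KD footprints, 2 in the mRNA difference (3 as reported) and 2 in the footprint difference, and 0 for TE and for *fbl-2* KD. Over all genes it gave 182 to 838 calls in *fbl-1* KD mRNA, 0 to 172 in its footprints, 13 to 91 in *fbl-2* KD mRNA, 187 to 559 in its footprints, 0 to 5 for TE in *fbl-2* KD, and 11 to 18 and 5 to 30 for the mRNA and footprint differences. The causes were not tested.

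No value that passed the threshold changed sign. Rescaling gave -0.01 for *VARS* footprints and -0.01 for *AARS* TE in *fbl-2* KD. Without 1 library, values ran from -0.14 to 0.03 for *TARS* SMED30035804 footprints, -0.08 to 0.13 for *AARS* TE and -0.10 to 0.04 for *VARS* TE in *fbl-1* KD, and from -0.14 to 0.25 for the *SARS* footprint difference. In *fbl-2* KD mRNA they ran from -0.07 to 0.02 for *AARS*, -0.06 to 0.04 for *NARS* and -0.05 to 0.13 for *VARS*. In *fbl-2* KD footprints they ran from -0.10 to 0.05 for *AARS*, -0.03 to 0.35 for *SARS* and -0.06 to 0.10 for *VARS*. For TE in *fbl-2* KD they ran from -0.07 to 0.08 for *AARS*, -0.30 to 0.13 for *CARS*, -0.20 to 0.18 for *SARS*, -0.29 to 0.04 for *TARS* SMED30035804 and -0.12 to 0.06 for *VARS*.

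A replicate block gave 5 members in *fbl-1* KD mRNA (*VARS* was lost), 0 in *fbl-2* KD mRNA and 2 in the mRNA difference. With the block, all-gene calls were 413 for 654, 13 for 47 and 11 for 21. Same-numbered mRNA libraries deviated together with correlations of -0.39 to 0.05, and 0 of 6 knockdown libraries matched best with their own number. With 3 libraries per group, centred within the group, this check cannot decide whether replicate numbers pair the samples. No paired analysis was possible for footprints and TE because footprint columns bear names that RNA-seq samples carry as titles, and each shows its group only. Count models were not run, since whole reads could not be recovered. Scaled values hide the depth, so counting error is unknown and small differences of *TARS* SMED30035804, at 114 to 203 scaled reads, are the least certain.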
